A study of Homo sapiens with 12 samples.

Results

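The genes described here encode the cytosolic ribosomal proteins, which were chosen by symbol: RPL or RPS followed by a number, with an optional A, L or X type paralog suffix, and the stalk proteins RPLP0, RPLP1 and RPLP2. RPSA, the RPS6K kinases, pseudogenes, antisense genes and Y-linked paralogs were left out. The rule found 85 genes among the 23368 distinct gene symbols of the count table, 53 for the large and 32 for the small subunit, spread over 21 chromosomes.

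Poly(A) RNA was sequenced from MDA-MB-231 cells, an ER- basal breast cancer cell line, and T47D cells, an ER+ luminal A breast cancer cell line, after 3 days of culture inside synthetic poly(ethylene glycol) matrices of the lower density used in the study. The matrices carried either GFOGER, a peptide that mimics collagen, or IKVAV, a peptide that mimics laminin, and all 4 conditions shared the same protease-cleavable crosslinks and were released with collagenase before RNA extraction. There were 3 libraries each for MDA-MB-231 GFOGER, T47D GFOGER and T47D IKVAV and 2 for MDA-MB-231 IKVAV, each from 3 gels combined; a further MDA-MB-231 IKVAV replicate that the authors removed for quality was not analysed here. Each condition is 1 cell line in 1 laboratory culture system, so the spread between libraries is that between gel pools and not between tumors.

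A ribosome is built from a small subunit, which reads the messenger RNA, and a large subunit, which joins amino acids, and each ribosomal protein is normally present in a single copy per subunit apart from the stalk proteins. Transcripts of most of these genes begin with a run of pyrimidines at the cap, the 5′ terminal oligopyrimidine (TOP) motif, through which mTORC1 and LARP1 control their translation. MYC is a known activator of ribosomal protein genes, and the genes are known for having many processed pseudogenes.

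The start sites of the members are shown first, since they carry the motif for which the family is known. Of the 85 genes, 67 had an entry in the RefSeq start table of build GRCh38.p14. A C at the annotated start followed by at least 4 pyrimidines was found in 46 of them, or 68.7%, against 5.14% of 27305 genes in that table. A gene with several annotated starts was counted if any of them had the run, and the windows below use the start with the longest run. When such a run was allowed to begin within 5 bases of the annotated start, 54 members, or 80.6%, and 25.2% of all genes had one. The first set below shows genes with the run, chosen because their values are given later. Each window holds 10 bases before the annotated start and 20 from it on, the run is in capitals, and each sequence is 5′ to 3′ on the strand of the gene.
RPS6, chr9:19380217-19380246, minus strand: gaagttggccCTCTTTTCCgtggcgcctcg
RPLP1, chr15:69452808-69452837, plus strand: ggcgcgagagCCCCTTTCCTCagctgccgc
RPL11, chr1:23691796-23691825, plus strand: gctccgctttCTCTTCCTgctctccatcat
RPL35A, chr3:197950180-197950209, plus strand: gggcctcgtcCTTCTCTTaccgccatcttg
RPS27A, chr2:55232678-55232707, plus strand: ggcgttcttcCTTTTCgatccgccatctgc
RPL22L1, chr3:170870176-170870205, minus strand: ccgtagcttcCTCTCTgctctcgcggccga

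The second set shows members with no such run at or within 5 bases of the annotated start. They include 3 paralogs with an L suffix.
RPS4X, chrX:72277229-72277258, minus strand: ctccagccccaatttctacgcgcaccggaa
RPL7L1, chr6:42879606-42879635, plus strand: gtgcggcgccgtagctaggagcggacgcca
RPL26L1, chr5:172958719-172958748, plus strand: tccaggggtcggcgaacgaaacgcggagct
RPS27L, chr15:63157458-63157487, minus strand: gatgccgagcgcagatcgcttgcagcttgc

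In the windows from 250 bases before to 50 bases after the start, the letters CCGGAAG, read on both strands, occurred in 24 members, or 35.8%, against 12.2% of all genes. The letters TATAAA on the sense strand occurred in 4 members, or 5.97%, against 8.99% of all genes. These are matches of letters to an annotated start and not mapped sites. The median log2 difference of GFOGER against IKVAV in MDA-MB-231 cells, described below, was 0.41 for the 45 genes tested with the run at the annotated start and 0.49 for the 20 without it there, some of which had one within 5 bases. The difference between these medians was not tested.

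The cell lines were first checked against their markers. All 9 T47D markers were higher in every T47D library than in any MDA-MB-231 library, among them ESR1, the estrogen receptor, at 257 to 317 cpm, counts scaled to the size of the library, in T47D cells and 0.52 to 0.80 cpm in MDA-MB-231 cells. Of the 7 MDA-MB-231 markers, 6 were higher in every MDA-MB-231 library, with VIM at 1436 to 2419 cpm there and 3.72 to 5.29 cpm in T47D cells. The exception was SPARC, which had at most 37 reads in a library and lay at 0.19 to 1.54 cpm in MDA-MB-231 cells and 1.07 to 2.26 cpm in T47D cells. The library sizes were adjusted by the trimmed mean of M-values (TMM), and the libraries held 14337035 to 18449108 reads counted on genes.

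The ribosomal protein genes together took a small and reproducible share of these reads. In MDA-MB-231 cells the share was 1.43%, 1.44% and 1.32% with GFOGER and 1.09% and 1.06% with IKVAV. The lowest GFOGER library was above both IKVAV libraries. In T47D cells the share was 1.96%, 1.88% and 1.88% with GFOGER and 1.87%, 1.88% and 2.05% with IKVAV. These groups overlapped, and all 6 T47D libraries lay above all 5 MDA-MB-231 libraries. The mean was 1.40% ± 0.0647 (SD, n = 3) for MDA-MB-231 GFOGER and 1.07% ± 0.0208 (SD, n = 2) for MDA-MB-231 IKVAV, a ratio of 1.30. It was 1.90% ± 0.0471 (SD, n = 3) for T47D GFOGER and 1.93% ± 0.104 (SD, n = 3) for T47D IKVAV, a ratio of 0.985. The 95% Wilson intervals of single libraries reached at most 0.00701 percentage points to either side, which is below the spread between replicates and covers counting error only. These are shares of bulk RNA, in which a change in cells of a certain state and a change in RNA per cell cannot be told apart.

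**Figure D1:**
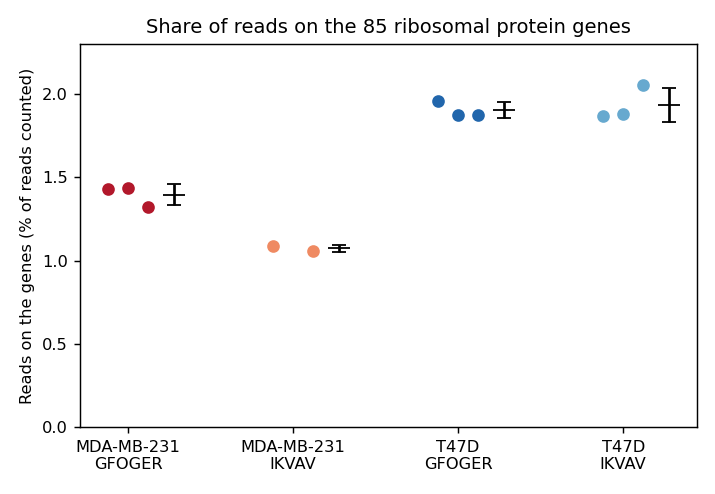
Share of the reads counted on genes that fell on the 85 ribosomal protein genes, in percent, with 1 point per library and the mean ± SD beside each condition (n = 3, 2, 3 and 3). The MDA-MB-231 GFOGER libraries sit between 1.32% and 1.44%, above the IKVAV libraries at 1.06% and 1.09%, whereas the T47D conditions overlap between 1.87% and 2.05%.

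Levels of the members per length were far from equal even though their products are used in nearly equal amounts. On the scale of cpm per kilobase of the gene length in the table, averaged over the 4 conditions, the median member was at 142, the lower quartile at 34.7 and the upper quartile at 364. The highest were RPLP1, a protein of the stalk that recruits elongation factors, at 1170, RPS25 of the small subunit at 1100, RPL8, near the peptidyl transferase center, at 836, RPL11 at 816 and RPL35A at 694. Among the lowest were RPL3L at 0.00963, RPL10L at 0.155 and RPL21 at 0.324. A further 2 members had no reads in any library, where 3 reads corresponded to 0.171 to 0.203 cpm. RPL3L, known from striated muscle, had at most 2 reads in a library, and RPL10L, an autosomal retrocopy of RPL10 known from the testis, at most 8. These 5 aside, the remaining 80 members passed the filter on low counts in each comparison, and 72 members had at least 100 reads in every library. Levels per kilobase depend on the length in the table. RPL28, of 5183 bases, had 384 cpm in MDA-MB-231 GFOGER and a mean level of 66.8 per kilobase. RPL27, of 490 bases, had 210 cpm there and 424 per kilobase. Both were named after their values were seen, and the part of table length in the spread was not tested.

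Low levels per length went together with sequence that is repeated elsewhere in the genome. The transcript of each of 84 members was cut into windows of 51 bases, the read length, and each window was searched for further exact copies in build GRCh37. A copy with an intron inside the window is missed by this search, so the shares are lower bounds. The 28 members with under 10% of windows copied had a median level of 303 cpm per kilobase, the 30 members between 10% and 50% a median of 147, and the 26 members with at least 50% a median of 60.7. Spearman's rho over the 84 genes was -0.44, given as a description, since the genes share libraries and annotation. RPL21 had all of its windows copied and has 133 pseudogenes named after it, the most of any member, and RPS3A, RPS27, RPS10 and RPL39 had 98.0%, 95.03%, 94.4% and 93.8%. In all, 1526 annotated pseudogenes were named after 77 of the members. RPS25, with 61.9% of its windows copied, was at 1100 cpm per kilobase, and which of its windows the reads came from was not tested. How reads with several alignments were treated is not given in the sources used here, so levels of highly copied members are uncertain.

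**Figure D2:**
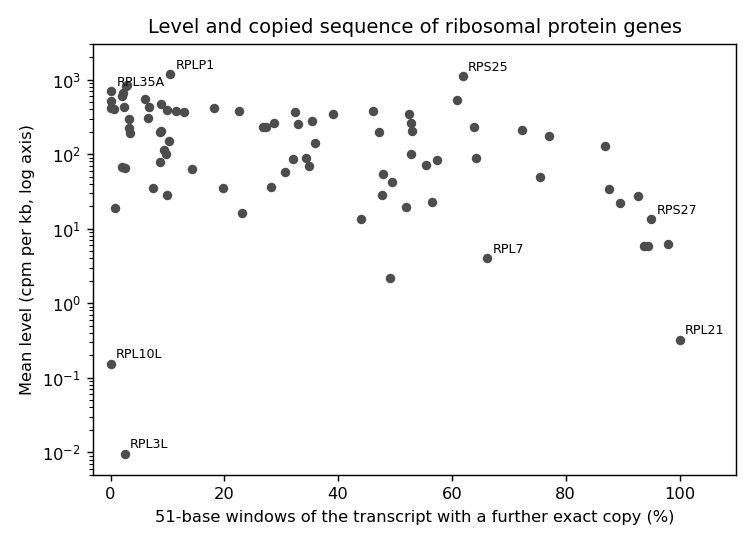
Mean level of each ribosomal protein gene over the 4 conditions (cpm per kilobase, log axis) against the share of its 51-base transcript windows with a further exact copy in the genome (percent), with 1 point per gene; the 2 genes with no reads are not drawn. RPL21, with every window copied, lies at 0.324 and RPLP1 at 1170, while RPL3L and RPL10L are low with few copied windows.

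Some members share positions with neighbors, and the effect on their counts was not tested. The span of 37 members overlapped another entry of the table, and that of 26 held a small nucleolar RNA entry, a class of RNA that is often encoded in introns of these genes. The read-through entries RPS10-NUDT3 and RPL36A-HNRNPH2 had 0 reads in every library. The overlapping genes with the most reads were TBC1D8 beside RPL31, with at most 1012 reads in a library, IQCG beside RPL35A, with at most 936, and DNASE1L1 beside RPL10, with at most 915. The labels call the libraries stranded, but the strand option of the counting is not given in the sources used here.

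The first comparison asked how each cell line responded to the collagen mimic relative to the laminin mimic. In MDA-MB-231 cells most ribosomal protein genes were higher with GFOGER: 62 of the 80 tested rose, 0 fell and 18 did not pass the test (edgeR's quasi-likelihood test, Benjamini-Hochberg adjusted p below 0.05). The count of members called higher was 30 with a trend in gene length removed and 33 without IKVAV replicate 2, as described below. Among all 14090 genes tested, 21.4% were called higher and 21.4% lower. At an unadjusted p below 0.05 there were 69 members, 69 higher and 0 lower, where 50.1% of all genes passed in either direction, and DESeq2 and voom also called 0 lower. The median log2 difference of the members was 0.42, or 1.33-fold, against 0.0039 for all genes tested. The lower and upper quartiles of the members were 0.35 and 0.56. The 3 GFOGER libraries were all above the 2 IKVAV libraries for 73 of the 80 members, which held for 32.5% of all genes tested, and below them for 1, RPL7. Both subunits took part, with 40 of 50 large subunit and 22 of 30 small subunit genes called higher and medians of 0.41 and 0.44.

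**Figure D3:**
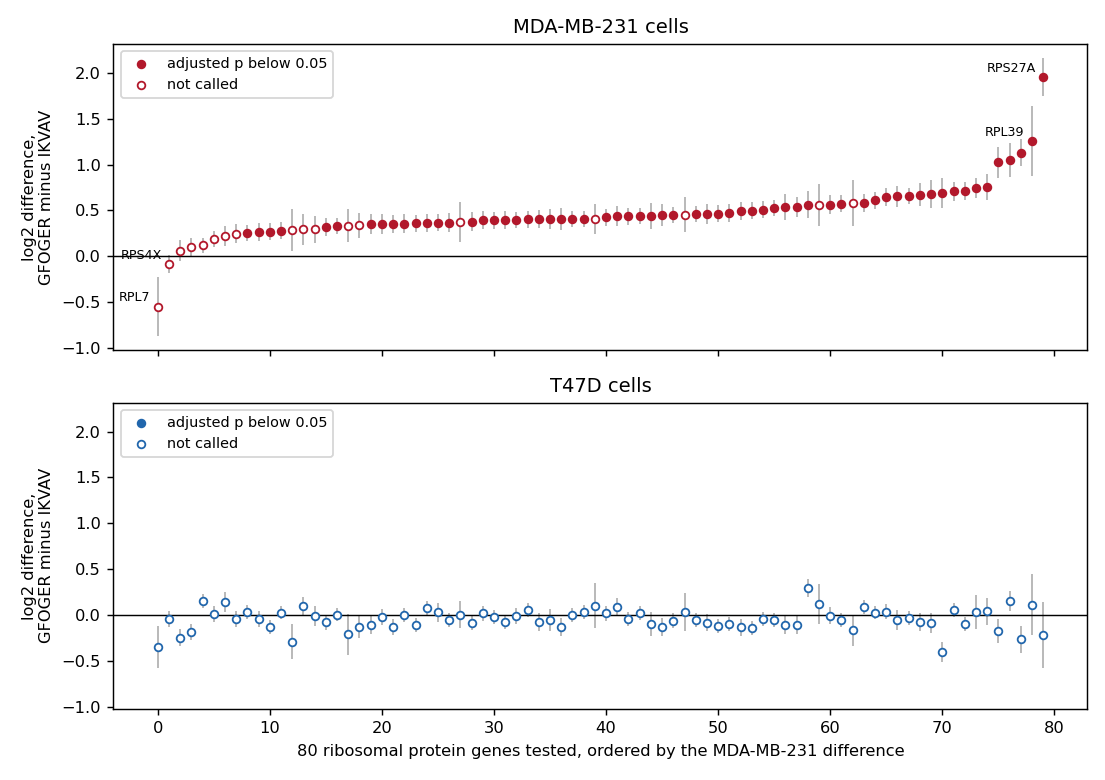
Log2 difference between GFOGER and IKVAV for the 80 ribosomal protein genes tested, in MDA-MB-231 cells (upper panel) and T47D cells (lower panel), in the same gene order, with bars for the standard error and filled points for an adjusted p below 0.05. In MDA-MB-231 cells 78 of the 80 genes lie above 0 and 62 are called, whereas in T47D cells 30 lie above 0 and 0 are called.

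Only 5 members rose more than 2-fold, where 3.12% of all genes did. The share of windows copied was 49.4% for RPS27A, 75.5% for RPS7, 51.9% for RPL26L1 and 93.8% for RPL39. It was 0.86% for RPL22L1, and the median over members was 29.7%. The part of copied sequence in these changes was not tested. The largest rise was that of RPS27A, which encodes a fusion of ubiquitin with a small subunit protein and lies on chr2:55459039-55462989 of hg19. Its level was 107, 53.3 and 83.4 cpm with GFOGER and 20.2 and 21.4 cpm with IKVAV. The GFOGER libraries differed among themselves by about the size of their lowest value, yet all lay above the IKVAV libraries. The log2 difference was 1.95 (SE 0.21, adjusted p = 1.68e-06). Without GFOGER replicate 3 the difference was 1.94 but was not called (adjusted p = 0.0864), and with the replicate number as a block it was 1.88 and not called either (adjusted p = 0.184). RPL22L1, the paralog of RPL22 on chr3:170582665-170588045, was at 33.1, 30.8 and 26.2 cpm with GFOGER and at 13.4 and 13.9 cpm with IKVAV. The groups were well separated, with a log2 difference of 1.13 (SE 0.15, adjusted p = 1.45e-05), while RPL22 itself had means of 132 ± 10.8 cpm (SD, n = 3) and 111 ± 4.46 cpm (SD, n = 2), and its log2 difference of 0.25 did not pass the test (adjusted p = 0.0588). RPL22 was called without GFOGER replicate 3 (0.32, adjusted p = 2.67e-06) and by voom (0.30, adjusted p = 0.000229), and the difference between RPL22 and RPL22L1 was not tested. RPS7, a small subunit protein also known to bind MDM2, was at 46.1, 49.0 and 34.5 cpm with GFOGER and 25.5 and 16.0 cpm with IKVAV, a log2 difference of 1.05 (SE 0.18). RPL26L1, the paralog of RPL26, was at 15.6, 14.4 and 13.3 cpm with GFOGER and 7.52 and 6.58 cpm with IKVAV, a log2 difference of 1.03 (SE 0.17). RPL39, a small protein of the exit tunnel, differed by 1.25 (SE 0.38, adjusted p = 0.0141), but its counts were low. It was at 5.66, 3.46 and 2.62 cpm with GFOGER and at 2.27 and 1.03 cpm with IKVAV, so that the lowest GFOGER and the highest IKVAV library lay close together. Its call was lost without IKVAV replicate 2 (adjusted p = 0.196), without GFOGER replicate 1 (adjusted p = 0.0676) and with a trend in gene length removed (adjusted p = 0.0645). Without IKVAV replicate 2, and with the length trend removed, RPS27A and RPL22L1 were the 2 members called over 2-fold, and without GFOGER replicate 1 RPS7 joined them.

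RPS6, the small subunit protein phosphorylated by S6 kinases, was at 388, 338 and 371 cpm with GFOGER and 228 and 233 cpm with IKVAV. No library of one group came near the other, and the log2 difference was 0.66 (SE 0.091, adjusted p = 2.91e-05). RPL5 and RPL11, which travel with 5S ribosomal RNA and bind MDM2 when not in a ribosome, rose by 0.47 (SE 0.097) and 0.46 (SE 0.087) on the log2 scale. RPL11 was at 535, 553 and 518 cpm with GFOGER and 381 and 391 cpm with IKVAV, and RPL5 at 483, 463 and 404 cpm and 331 and 317 cpm. Both pairs of groups were separate. RPL8 rose by 0.44 (SE 0.085) and RPS25 by 0.28 (SE 0.092).

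Of the stalk proteins, RPLP0, which anchors the stalk, rose by 0.52 (SE 0.087, adjusted p = 0.000171), from 213 and 205 cpm with IKVAV to 297, 299 and 308 cpm with GFOGER. RPLP2 rose by 0.36 (SE 0.096), and RPLP1, the most abundant member per length, was at 473, 502 and 493 cpm with GFOGER and 443 and 453 cpm with IKVAV. The RPLP1 libraries did not overlap, but the log2 difference of 0.12 (SE 0.085) did not pass the test (adjusted p = 0.273). Without GFOGER replicate 3 RPLP1 was called higher, at 0.12 (adjusted p = 0.0124). Differences between these genes were not tested.

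The members at the other end of the range included RPS4X, the X-linked gene of a small subunit protein. It was at 477, 477 and 394 cpm with GFOGER and 473 and 473 cpm with IKVAV, so the groups overlapped, and the log2 difference was -0.08 (SE 0.099, adjusted p = 0.534). RPL7 had a log2 difference of -0.55 (SE 0.32, adjusted p = 0.18) on few reads, at 1.54, 2.29 and 1.65 cpm with GFOGER and 2.40 and 2.90 cpm with IKVAV. RPL13A and RPL15, named after their values were seen, and RPL41 had log2 differences of 0.06, 0.10 and 0.29 and did not pass the test. RPL41 was called higher by voom (0.40, adjusted p = 0.00462) and without GFOGER replicate 3 (0.42, adjusted p = 0.00437).

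The genes with an L suffix, which are paralogs of core members, were all called higher in MDA-MB-231 cells where they could be tested. This held for 6 of 6, with a median of 0.57 on the log2 scale, beside 56 of 74 called among the other members and 21.4% of all genes. The calls of RPL7L1, RPL39L and RPS27L were lost with the trend in gene length removed. RPL36AL rose by 0.57 (SE 0.093), RPL39L by 0.56 (SE 0.15), RPS27L, a known p53 target, by 0.54 (SE 0.14) and RPL7L1 by 0.41 (SE 0.11). Their partners differed in how well they were measured. RPL3 rose by 0.51 (SE 0.092), RPL26 by 0.46 (SE 0.11) and RPL10 by 0.41 (SE 0.10). RPL36A had a difference of 0.33 (SE 0.18, adjusted p = 0.147) and RPS27 of 0.29 (SE 0.23, adjusted p = 0.336), both at under 11 cpm in each library and neither called. Of their windows, 49.1% and 95.03% were copied.

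Gene length moved with this comparison. The members tested had a median length of 763.5 bases in the table, against 3054.5 for all genes tested, and shorter genes were higher with GFOGER in general. In the shortest quartile of all genes tested, 29.3% were called higher and 11.5% lower, with a median log2 difference of 0.17, and in the longest quartile 15.6% and 32.3%, with a median of -0.12. The 70 members in the shortest quartile had a median of 0.44, with 78.6% called higher. When a smooth trend with gene length was removed from each library, 30 members were called higher and 1, RPS4X, lower, and the median fell to 0.22, while 20.8% of all genes were called higher. Of the members whose rise is given above, RPL7L1, RPL11, RPL26, RPL39, RPL39L, RPS25, RPS27L and RPLP2 were then not called (adjusted p from 0.0562 to 0.742), with RPS25 at -0.042. Markers that a culture of these cells should lack also moved: the summed level of 7 such genes, with COL1A1 the most abundant and CD3E at 0 in every MDA-MB-231 library, was 25.4, 26.1 and 31.2 cpm with GFOGER and 44.8 and 49.6 cpm with IKVAV. The summed level of the 7 MDA-MB-231 markers was 6447, 6434 and 6595 cpm with GFOGER and 4409 and 4284 cpm with IKVAV. The part of these markers in the result was not tested. With 2 IKVAV libraries, the count of calls also depended on each: without IKVAV replicate 2 it was 33 (11% of all genes), and without IKVAV replicate 1 it was 44 (12.9%), with medians of 0.42 and 0.46. Among the smaller changes given above, the call of RPS25 was lost without GFOGER replicate 1 or 2 or either IKVAV library (adjusted p from 0.0751 to 0.199), those of RPL39L, RPS27L and RPL10 without IKVAV replicate 1 (0.0682 to 0.0806), and those of RPL7L1, RPL26 and RPLP2 without IKVAV replicate 2 (0.0698 to 0.196).

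In T47D cells the same comparison gave 0 calls in either direction among the 80 members, where 0.044% of all 13639 genes tested were called higher and 0.066% lower. At an unadjusted p below 0.05 there were 4 members, or 5% of those tested, below the 11.2% of all genes at that threshold. DESeq2 also called 0, and voom called 2 higher and 1 lower, where it called 4.45% of all genes higher and 6.61% lower. The 4, none of which passed the adjusted test and of which RPL13A was named after its values were seen, were RPL9 at -0.40 (SE 0.11), RPL39L at 0.30 (SE 0.094), RPL13A at -0.24 (SE 0.095) and RPLP1 at 0.16 (SE 0.073) on the log2 scale. The median difference of the members was -0.04, and their range was from -0.40 to 0.30. Without IKVAV replicate 3 the median was 0.018 and RPL39L was called higher (0.39, adjusted p = 0.00673). In that fit 3.10% of all genes were called higher and 4.71% lower. RPS6 illustrates the contrast with MDA-MB-231 cells, at 470, 453 and 475 cpm with GFOGER and 472, 438 and 519 cpm with IKVAV. Its groups overlapped. RPL22L1 was at 50.5, 42.5 and 51.7 cpm with GFOGER and 48.3, 50.7 and 74.2 cpm with IKVAV, with IKVAV replicate 3 apart from the rest. RPS27A varied widely among replicates, at 82.0, 67.3 and 32.8 cpm with GFOGER and 71.1, 83.4 and 56.4 cpm with IKVAV.

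The difference between the cell lines in this response was then tested itself, as an interaction in 1 fit of all 11 libraries. It was positive, that is, the effect of GFOGER relative to IKVAV was higher in MDA-MB-231 cells, at an adjusted p below 0.05 for 52 of 80 members and negative for 0. Of all 15310 genes tested, 10.8% had a positive and 10.1% a negative interaction. The median of the members was 0.47 on the log2 scale, against 0.025 for all genes. An interaction over 2-fold was found for 4 members, where 2.24% of all genes had one: RPS27A at 2.17 (SE 0.52, adjusted p = 0.0159), RPL22L1 at 1.40 (SE 0.22, adjusted p = 0.00019), RPL26L1 at 1.21 (SE 0.21, adjusted p = 0.000394) and RPL9 at 1.10 (SE 0.18, adjusted p = 0.000262). RPL9, a large subunit protein near the base of the stalk, was at 11.8, 13.2 and 12.4 cpm with GFOGER and 7.39 and 7.96 cpm with IKVAV in the MDA-MB-231 libraries. The T47D libraries held 25.6, 24.6 and 25.3 cpm with GFOGER and 30.6, 32.8 and 36.4 cpm with IKVAV. Its groups were separate in both cell lines and lay in opposite order. Of the RPL9 windows, 89.5% were copied, and the part of copied sequence in its levels was not tested. For RPS27A the interaction did not pass the test without MDA-MB-231 GFOGER replicate 3, MDA-MB-231 IKVAV replicate 2 or T47D IKVAV replicate 1 (adjusted p from 0.0517 to 0.0559). The interaction was -0.03 (SE 0.10) for RPLP1 and -0.04 (SE 0.13) for RPS4X. Without MDA-MB-231 IKVAV replicate 2 the count of positive interactions was 22, with 5.09% of all genes called, and with the trend in gene length removed it was 24.

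**Figure D4:**
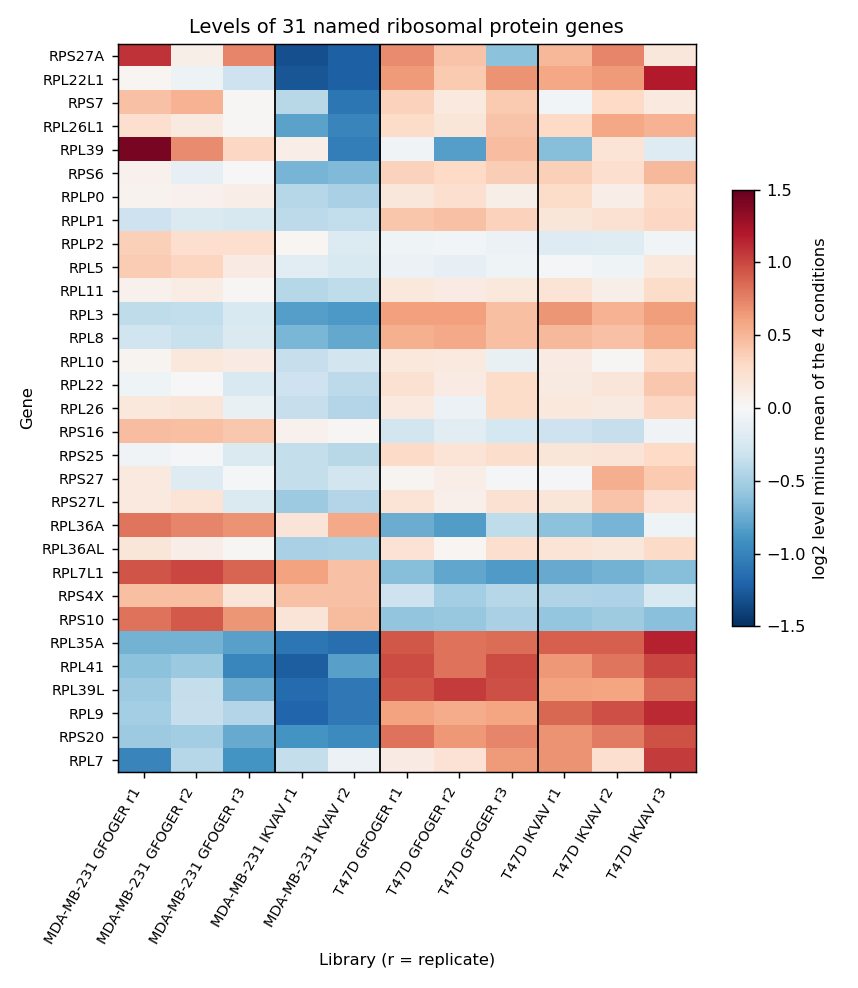
Log2 level of 31 named ribosomal protein genes in each of the 11 libraries, relative to the mean of the 4 condition means of that gene (color, from -1.5 to 1.5), with black lines between conditions. The MDA-MB-231 IKVAV libraries are lowest for genes such as RPS27A, RPL22L1 and RPS6, and the lower block, from RPL35A to RPL7, separates T47D from MDA-MB-231 libraries.

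Between the cell lines, with both matrices averaged, the ribosomal protein genes were mostly lower in MDA-MB-231 than in T47D cells. The test called 59 of 80 members lower and 9 higher, where 42.5% of all 15310 genes tested were called lower and 42% higher. The median difference of the members was -0.43 on the log2 scale, against -0.015 for all genes. Over 2-fold, 17 members were lower and 3 higher, against 22.6% and 23.7% of all genes, so that large differences in the lower direction were near the background share and those in the higher direction below it. The comparison depended on the matrix. With GFOGER libraries alone, 36 members were lower and 15 higher, with a median of -0.12, and with IKVAV libraries alone 61 were lower and 6 higher, with a median of -0.67. In these fits 39.9% and 38.2% of all genes were lower and 41.0% and 38.1% higher, so that with GFOGER the share of members lower was near that of all genes. With the trend in gene length removed, 42 members were lower and 17 higher, with a median of -0.19, where 42.1% of all genes were lower and 42.2% higher.

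The largest difference was that of RPL35A, a large subunit protein whose gene is mutated in some cases of Diamond-Blackfan anemia. Its level was 168, 169 and 157 cpm in MDA-MB-231 GFOGER, 130 and 126 cpm in MDA-MB-231 IKVAV, 526, 485 and 494 cpm in T47D GFOGER and 513, 515 and 614 cpm in T47D IKVAV. Every T47D library was above every MDA-MB-231 library, with a log2 difference of -1.85 (SE 0.064, adjusted p = 2.07e-16). RPL41, which encodes the shortest ribosomal protein, had a mean in MDA-MB-231 GFOGER of 21.6 ± 3.21 cpm (SD, n = 3) and 17.5 ± 3.57 cpm (SD, n = 2) in the IKVAV condition of that line. In the T47D conditions the means were 67.03 ± 4.21 and 62.5 ± 7.81 (SD, n = 3 each), and the log2 difference between the lines was -1.73 (SE 0.10). RPL39L, a paralog of RPL39 known from the testis, was at 26.1, 29.7 and 22.7 cpm with GFOGER and 17.1 and 18.2 cpm with IKVAV in MDA-MB-231 cells, and between 57.4 and 78.7 cpm across the T47D libraries. The ranges were far apart, with a log2 difference of -1.66 (SE 0.085), whereas RPL39 itself had a difference of 0.36 (SE 0.28) that did not pass the test (adjusted p = 0.234). With GFOGER libraries alone RPL39 was called higher in MDA-MB-231 cells (0.94, adjusted p = 0.0148). It was also called higher with the trend in gene length removed (0.66, adjusted p = 0.0341). RPL9 and RPS20, a protein of the small subunit head, were lower by 1.57 (SE 0.091) and 1.53 (SE 0.067) on the log2 scale, and RPL8 and RPL3 by 1.01 (SE 0.055) and 1.17 (SE 0.059).

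The members higher in MDA-MB-231 cells were fewer and of mixed kind. RPL7L1, a paralog of RPL7, was at 59.9, 62.5 and 57.0 cpm with GFOGER, at 47.3 and 42.5 cpm with IKVAV, and between 17.4 and 20.0 cpm in the 6 T47D libraries. The lines did not overlap, with a log2 difference of 1.45 (SE 0.075, adjusted p = 2.11e-13). RPL7 itself went the other way, by -1.002 (SE 0.19), at a level of 1.54 to 6.36 cpm and with 66.2% of its windows copied. RPS4X was at 394 to 477 cpm in MDA-MB-231 cells and 245 to 297 cpm in T47D cells, a log2 difference of 0.80 (SE 0.066). RPS16, of the small subunit head, was at 230 to 313 cpm and 180 to 219 cpm, a difference of 0.47 (SE 0.060), and RPS10, near the entry of the messenger RNA, differed by 1.13 (SE 0.13) at under 10 cpm. RPL36A was higher by 1.10 (SE 0.15), while RPL36AL, which encodes a nearly identical protein from another chromosome, was lower by 0.38 (SE 0.059). The call of RPL36AL was lost with GFOGER libraries alone (-0.057, adjusted p = 0.531). It was also lost with the trend in gene length removed (-0.073, adjusted p = 0.251). RPL36AL, at 154 to 263 cpm, held most of the counted reads of this pair in all 11 libraries, since RPL36A had at most 10.2 cpm. RPL36A had 49.1% of its windows copied and RPL36AL 18.2%, and the part of copied sequence in these counts was not tested. RPLP2 and RPL27A, the latter named after its values were seen, were also called in this direction. The call of RPLP2 was lost by upper-quartile scaling, by library size alone and with IKVAV libraries alone (adjusted p from 0.0531 to 0.521).

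Ribosomal proteins outside the rule behaved much as the members did. RPSA, a small subunit protein, rose with GFOGER in MDA-MB-231 cells by 0.66 (SE 0.11), and FAU, the fusion gene of RPS30, by 0.59 (SE 0.10) on the log2 scale. The mean level of FAU was 103 ± 3.07 cpm in the 3 GFOGER libraries (SD) and 67.8 ± 6.95 cpm in the 2 IKVAV libraries (SD). In T47D cells their differences were 0.07 and 0.03 and did not pass the test.

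The surrounding pathway was described by 7 lists, read against the same shares of all genes as above. In MDA-MB-231 cells 70 of 88 ribosome biogenesis factors were called higher with GFOGER and 1, DDX51 at -0.49, lower, with a median log2 difference of 0.47. FBL, the methyltransferase of box C/D particles, rose by 0.73 (SE 0.10), NPM1, an abundant nucleolar chaperone, by 0.69 (SE 0.11), and NCL, nucleolin, by 0.41 (SE 0.082). Of 76 mitochondrial ribosomal proteins, encoded in the nucleus and used inside mitochondria, 50 were higher and 0 lower, with a median of 0.43. Of 46 translation initiation factors, 32 were higher and 4 lower. The 4, at -0.51 to -0.36, were EIF4G3 and 3 genes, EIF2C1, EIF2C3 and EIF2C4, which are older symbols of Argonaute genes of small RNA silencing and not initiation factors. Of 15 subunits and cofactors of RNA polymerase I, which transcribes ribosomal RNA, 6 were higher and 0 lower, and of 14 noncoding snoRNA host genes 6 were higher and 0 lower. In T47D cells edgeR called 0 genes of these lists, and at an unadjusted p below 0.05 each list held 0 to 5 genes.

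Not every translation gene moved with the members. Of 7 elongation factors, 3 were higher and 1, EEF1A2 at -0.78, lower. EEF1A1, which delivers aminoacyl-tRNA, rose by 0.35 (SE 0.095), whereas EEF2, the translocation factor, had a log2 difference of 0.0016 (SE 0.10, adjusted p = 0.993), although EEF2, like the members, is a known TOP mRNA. TPT1, another TOP mRNA, fell by 0.36 (SE 0.084, adjusted p = 0.00235), with a mean of 475 ± 11.8 cpm in the 3 GFOGER libraries (SD) and 608 ± 20.7 cpm in the 2 IKVAV libraries (SD). PABPC1, the poly(A) binding protein, rose by 0.38 (SE 0.084) and GNB2L1, which encodes RACK1 of the small subunit, by 0.37 (SE 0.083). Among 27 mTORC1 and TOP mRNA regulators 2 were higher, or 7.41%, and 5 lower, or 18.5%, both below the 21.4% of all genes called in each direction. The lower ones were the inhibitors of mTORC1 signaling DDIT4 at -1.45, SESN3 at -1.20, TSC1 at -0.78 and TSC2 at -0.27, and the RNA binding protein LARP4B at -0.23. The higher ones were EIF4EBP1, a substrate of mTORC1, at 0.98 and RPTOR, a subunit of it, at 0.31. These 7, like DDX51, EEF1A2 and the 4 EIF genes, were named after their values were seen. In MDA-MB-231 cells the mean level of MYC was 173 ± 7.59 cpm in the 3 GFOGER libraries (SD) and 101 ± 3.09 cpm in the 2 IKVAV libraries (SD), a log2 difference of 0.76 (SE 0.094, adjusted p = 8.64e-06). In T47D cells its difference was -0.39 (SE 0.11, adjusted p = 0.231), and its interaction was 1.16 (SE 0.16, adjusted p = 4.35e-05).

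**Figure D5:**
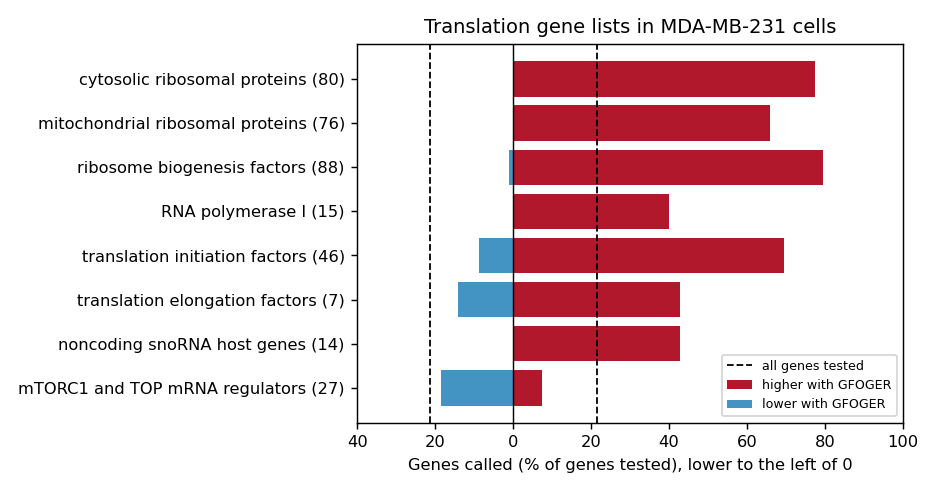
Share of the genes tested in 8 translation gene lists that were called higher (red, right of 0) or lower (blue, left of 0) with GFOGER than with IKVAV, in percent, for MDA-MB-231 cells, with the number tested in brackets and dashed lines at the 21.4% of all genes called in each direction. The bars of the cytosolic ribosomal proteins, at 77.5%, and of the ribosome biogenesis factors, at 79.5%, reach farthest right, and the mTORC1 list is the one with more lower than higher calls.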

How the data were processed

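The authors prepared poly(A) libraries with a kit that the labels call stranded, trimmed 51-base single-end reads with Trim Galore 0.4.4, aligned them to hg19 with TopHat2 2.1.0 and counted them on genes with HTSeq 0.6.1p1, as the submitters' processing notes and methods give it. The gene annotation, the strand option and the handling of reads with several alignments are not given in the sources used here. The deposited table holds raw read counts and RPKM values for 11 of 12 samples, with gene positions and lengths. Of 24656 entries, 1288 that repeat a symbol were left out, of which 6 had a read.

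Counts were analysed in R 4.3.3 with edgeR 4.0.16 (TMM, filterByExpr, quasi-likelihood test with robust estimation, Benjamini-Hochberg adjustment over all genes tested), each cell line on its own for the matrices and all 4 conditions together for the cell lines and the interaction. A gene was called at an adjusted p below 0.05, with a 2-fold threshold where stated. The deposited RPKM values were used for no result except the library totals they imply, which were 5191200 to 5774966 in 5 libraries and 19898878 to 22840524 in 6. Members and lists were chosen with earlier results of these data known, and no list was tested. Genes named are the 5 largest changes in each direction per comparison among called members whose libraries did not overlap and whose average log2 cpm reached 2, the paralogs and their partners, the stalk proteins, RPL5, RPL11 and RPS6, the 5 highest and 5 lowest per length, members called over 2-fold between matrices, and 12 fixed genes outside the members. Others are marked in the text, and some genes that the rule names are not reported here. In simulated counts with the means and totals of these libraries, the test recovered 99 of 100 genes changed by 1 on the log2 scale in MDA-MB-231 cells and 100 of 100 in T47D cells, and 26 of 100 and 50 of 100 changed by 0.4. For the comparison of the cell lines it recovered 100 of 100 and 81 of 100 at these sizes, and for the interaction 93 and 7. The simulation used the fitted trend of the spread between libraries and changed only 100 genes at each size. In the real MDA-MB-231 libraries 21.4% of all genes were called in each direction. The adjusted threshold is stricter when few genes change, so these shares do not measure recovery in the real libraries. Chi-square per gene between replicate libraries, which is 1 for counting error alone, ranged from 2.51 to 18.6. Alternatives were DESeq2 1.42.0, limma 3.58.1 voom with quality weights, other scalings and filters, a gene length offset, the implied RPKM totals as a term, the replicate number as a block and leaving out each library. Leaving out robust estimation and keeping members with few copied windows were added after the data were seen.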

Additional observations from a re-analysis of the deposited data

Results flagged for a closer look

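The effect of GFOGER relative to IKVAV differed between the cell lines, by the interaction test of edgeR, for 52 of the 80 ribosomal protein genes tested, all in the direction of a higher effect in MDA-MB-231 cells, and with a share of 10.8% of all genes. Among the named members the interaction on the log2 scale was 2.17 for RPS27A, 1.40 for RPL22L1, 1.21 for RPL26L1, 1.10 for RPL9 and 0.91 for RPS7. It was 0.70 for RPS6, 0.65 for RPS27L, 0.63 for RPL36AL, 0.59 for RPL5, 0.58 for RPLP0, 0.56 for RPL3, 0.55 for RPL26 and 0.52 for RPL11. It was 0.49 for RPL10, 0.49 for RPL35A, 0.47 for RPL7L1, 0.42 for RPL8, 0.41 for RPS16 and 0.40 for RPS20. Without MDA-MB-231 IKVAV replicate 2 the interaction of RPS7, RPL7L1, RPS16, RPL35A, RPS20, RPL8, RPL10, RPL26 and RPS27A was no longer called (adjusted p from 0.0517 to 0.189), while all kept their sign. With the trend in gene length removed, the interactions of RPL7L1, RPS16, RPL35A, RPS20, RPL8, RPL11 and RPL26 were not called (adjusted p from 0.0646 to 0.356), and with the implied RPKM totals as a term those of RPS27A and RPS27L were not (0.103 to 0.11). Over 22 alternatives the call was kept in 11 for RPL7L1, 11 for RPS20, 15 for RPS16, 17 for RPL10 and 18 for RPS27A.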

How the results depend on the processing

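The rise with GFOGER in MDA-MB-231 cells kept its direction under all 17 alternatives, with a median of 0.22 to 0.46 and 30 to 73 members called higher. With the gene length offset, 30 members were higher and 1 lower (median 0.22), the T47D median was -0.10, the cell line difference had 17 higher and 42 lower (median -0.19, with 42.2% and 42.1% of all genes), and the interaction had 24 higher and 1, RPLP1, lower (median 0.30, with 10.7% and 10.1% of all genes). RPS25 then had a log2 difference of -0.042 in MDA-MB-231 cells. With voom, T47D cells had 2 members higher, RPLP1 and RPL39L, and 1 lower, RPL9 (median 0.021), where 4.45% and 6.61% of all genes were called. With the RPKM totals as a term, 4 were lower in T47D cells, RPL22L1, RPL9, RPS15A and RPL15 (median -0.13), where 1.42% of all genes were lower and 1.24% higher, and the interaction had a median of 0.60. Every T47D GFOGER library and, of the T47D IKVAV libraries, only replicate 3 had the lower implied totals. The 4 calls thus compare GFOGER with IKVAV replicate 3 alone, and no conclusion is drawn from them. In MDA-MB-231 cells only IKVAV replicate 1 had the lower totals. There the term left only IKVAV replicate 2 against GFOGER, which repeats leaving out replicate 1 (medians 0.45 and 0.46). The cell line median was -0.51 by upper-quartile scaling and -0.50 by library size alone. With GFOGER libraries only it was -0.12, with 15 higher and 36 lower (41.0% and 39.9% of all genes), and RPS27A, RPS7 and RPL10 were at 0.43, 0.060 and 0.044, and with IKVAV libraries only it was -0.67. Leaving out 1 library at a time gave 33 to 73 higher in MDA-MB-231 cells (11% to 29.1% of all genes), 0 to 1 higher (RPL39L, without IKVAV replicate 3, where 3.1% of all genes were higher) and a median of -0.072 to 0.018 in T47D cells, and 22 to 57 positive interactions (5.09% to 13.3% of all genes) with a median of 0.42 to 0.51. The cause of these shifts was not tested. Levels per length had medians of 140, 86.4, 137 and 147 for MDA-MB-231 GFOGER and IKVAV and T47D GFOGER and IKVAV. By library size alone the median was 135 in MDA-MB-231 GFOGER and 141 in T47D GFOGER. Over members with few copied windows, those under 10%, the medians were 343, 260, 297 and 303 in the same order of conditions. Members with more copied windows, whose median levels were lower, are then left out. Without L paralogs the share in MDA-MB-231 IKVAV was 1.05%. Same-numbered libraries correlated by -0.18 to 0.04 in their deviations. Differently numbered libraries were not compared, so these values do not settle whether the numbers pair libraries. With the replicate number as a block, 73 members were higher in MDA-MB-231 cells (29.4% of all genes), with RPLP1 (adjusted p = 0.00718), RPL41 (0.00151) and RPL22 (1.52e-07) called and RPS27A not (adjusted p = 0.184). Under the block 0 were called in T47D cells (0.227% of all genes higher, 0.279% lower), 9 were higher and 58 lower between the lines (41.3% and 41.7% of all genes), and 41 interactions were positive (7.94% of all genes). Differences of 0.4 and below may be missed in these libraries. In the simulated counts, where few genes were changed, 26 of 100 genes changed by 0.4 were recovered in MDA-MB-231 cells and 50 of 100 in T47D cells. For the interaction it was 7 of 100 and between the cell lines 81 of 100. The part of read number and library number in this was not tested.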
